A study of Mus musculus with 36 samples.

Results

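RNA of the glucocorticoid receptor and of genes it controls was followed in mouse liver across feeding, fasting and refeeding. The set held the receptor gene Nr3c1, the cortisone-reducing enzyme gene Hsd11b1 and 8 genes known to be induced by glucocorticoids, Fkbp5, Zbtb16, Tsc22d3, Sgk1, Klf9, Klf15, Dusp1 and Errfi1. These genes were picked by symbol from a table of counts, with earlier results of these data known. All 10 were among its 38283 genes, and all 10 passed the filter on low counts, as did 13945 genes in total. Livers came from 36 male mice on a C57Bl/6J background, aged 16 weeks and kept on chow, and were either wild-type or heterozygous for a knock-in allele of Pik3r1 that puts a stop codon into the protein (WT/Y657*). Pik3r1 encodes regulatory subunits of phosphoinositide 3-kinase, which carry the insulin signal, and the allele was carried in the germline, so every tissue had it, after backcrossing to C57Bl/6J. Each genotype had 6 fed mice, taken before an overnight fast, 6 mice fasted for 16 h, and 6 mice given chow for 6 h after such a fast.

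Glucocorticoids are steroid hormones of the adrenal gland that rise in fasting and before the active phase of the day. In hepatocytes the enzyme made from Hsd11b1 turns the inactive keto steroid back into the active hormone. The receptor waits in the cytoplasm in a complex of Hsp90 chaperones and their partners, moves to the nucleus once it has bound hormone, and binds DNA as a dimer at palindromic response elements. Fkbp5 encodes a co-chaperone that lowers the receptor's affinity for hormone, so its induction is a well-known negative feedback, and Tsc22d3 encodes the leucine zipper protein GILZ, which mediates part of the anti-inflammatory action. Several of these target genes also answer to insulin, to cyclic AMP or to the clock.

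Stretches upstream of start sites in RefSeq (GRCm38.p6) show how the target genes differ close to their starts. A window of 250 bases before and 50 bases after a start was at hand for 8 of the 10 genes, 16 windows in all, with no entry for Nr3c1 or Zbtb16. The palindrome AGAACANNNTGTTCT, which reads the same on both strands, was present in 1 of those 16 windows, an Sgk1 window, and in 0.00913% of all 32851 windows. Its half-site AGAACA, read on either strand and so counted inside the palindrome as well, was present in 4 of the 16 windows, 3 of Sgk1 and 1 of Tsc22d3, against 19% of all windows. The 250 upstream bases of 3 windows are given below in the direction of transcription, with the palindrome of Sgk1 and the half-site of Tsc22d3 in capitals. The Sgk1 window holds 3 half-sites, of which the 1 outside the palindrome is left in lower case. Fkbp5, called in the most comparisons together with Nr3c1, is shown as a window without a match.
Sgk1, chr10:21993640-21993889, plus strand: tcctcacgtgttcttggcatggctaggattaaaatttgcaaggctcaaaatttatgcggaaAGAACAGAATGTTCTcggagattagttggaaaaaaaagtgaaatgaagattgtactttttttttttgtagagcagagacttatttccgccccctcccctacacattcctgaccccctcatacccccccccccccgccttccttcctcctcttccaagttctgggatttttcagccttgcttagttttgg
Tsc22d3, chrX:140600523-140600772, minus strand: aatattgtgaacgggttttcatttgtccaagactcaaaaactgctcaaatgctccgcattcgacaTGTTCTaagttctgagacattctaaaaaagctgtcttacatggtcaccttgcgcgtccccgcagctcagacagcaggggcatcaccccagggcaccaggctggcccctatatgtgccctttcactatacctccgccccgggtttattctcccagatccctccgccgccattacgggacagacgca
Fkbp5, chr17:28486150-28486399, minus strand: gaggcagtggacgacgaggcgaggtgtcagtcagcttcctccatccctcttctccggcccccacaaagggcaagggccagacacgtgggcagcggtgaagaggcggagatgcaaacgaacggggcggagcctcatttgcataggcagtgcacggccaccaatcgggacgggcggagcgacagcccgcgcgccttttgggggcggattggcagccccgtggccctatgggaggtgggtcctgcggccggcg
The Sgk1 palindrome began 189 bases before this start, which is 1 of 6 RefSeq starts of the gene, and the Tsc22d3 half-site began 185 bases before 1 of 3 starts. Which of these starts was used in liver cannot be read from counts per gene. A match describes the letters only, and response elements that lie farther away were not searched.

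Total counts ranged from 8839481 to 19542778 per mouse, and the sparsest gene of the set, Zbtb16, still had at least 60 counts in every mouse. Levels are given as CPM, read counts scaled to a common library total, after scaling between libraries, with the lowest, median and highest of the 6 mice of a group. Per kilobase of exon the genes spanned a wide range in fed wild-type mice, from a mean of 325 CPM per kb for Errfi1, 109.7 for Hsd11b1 and 65.9 for Klf15 down to 2.80 for Zbtb16 and 2.35 for Fkbp5, with the receptor at 19.9. Summed CPM of 5 hepatocyte markers lay between 45400 and 87500 in all 36 mice, and the adipocyte markers Adipoq and Plin1 summed to at most 4.65 CPM. In bulk liver, fewer cells of a type and less RNA per cell cannot be told apart. A set of 3 fed WT/Y657* mice, called the outlying fed mice here, stood apart from the other 9 fed mice on the first principal component, at 9.09 to 10.1 against 30.8 to 43.6, so responses of WT/Y657* mice to fasting are given with and without them. Fed mice carried mouse numbers of a middle range, where genotype nearly followed number, whereas fasted and refed mice came from a set of lower numbers and a set of higher numbers, with 3 mice of each group in each set. Feeding state, mouse number and the time of day of tissue collection, whose hours the sources used here do not give, therefore cannot be told apart between fed mice and the rest. Refed mice had 6 h of chow after a 16 h fast, so time of collection may also have differed between refed and fasted mice. Refeeding and that time cannot be told apart there.

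The genotypes were compared within each feeding state. In fasted mice 5 of the 10 genes passed an adjusted p of 0.05 between WT/Y657* and wild-type mice (edgeR quasi-likelihood test, Benjamini-Hochberg over all genes), where 13.1% of the 13945 genes tested did. The set was chosen with earlier results of these data known, so this count is a description and not a test of the set. Fkbp5, Zbtb16 and Tsc22d3 were higher in WT/Y657* mice, and Nr3c1 and Hsd11b1 were lower. Of these, all but Hsd11b1 showed no overlap between the genotypes, as did 5.04% of all genes tested. None of the 10 passed in fed mice, where 2.37% of all genes did, and none passed in refed mice, where 0.0287% did. At an unadjusted p of 0.05, 3 of the 10 genes differed between genotypes in fed mice and 2 in refed mice, and DESeq2, edgeR's likelihood ratio test and limma-voom also called 0 in both states.

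**Figure D1:**
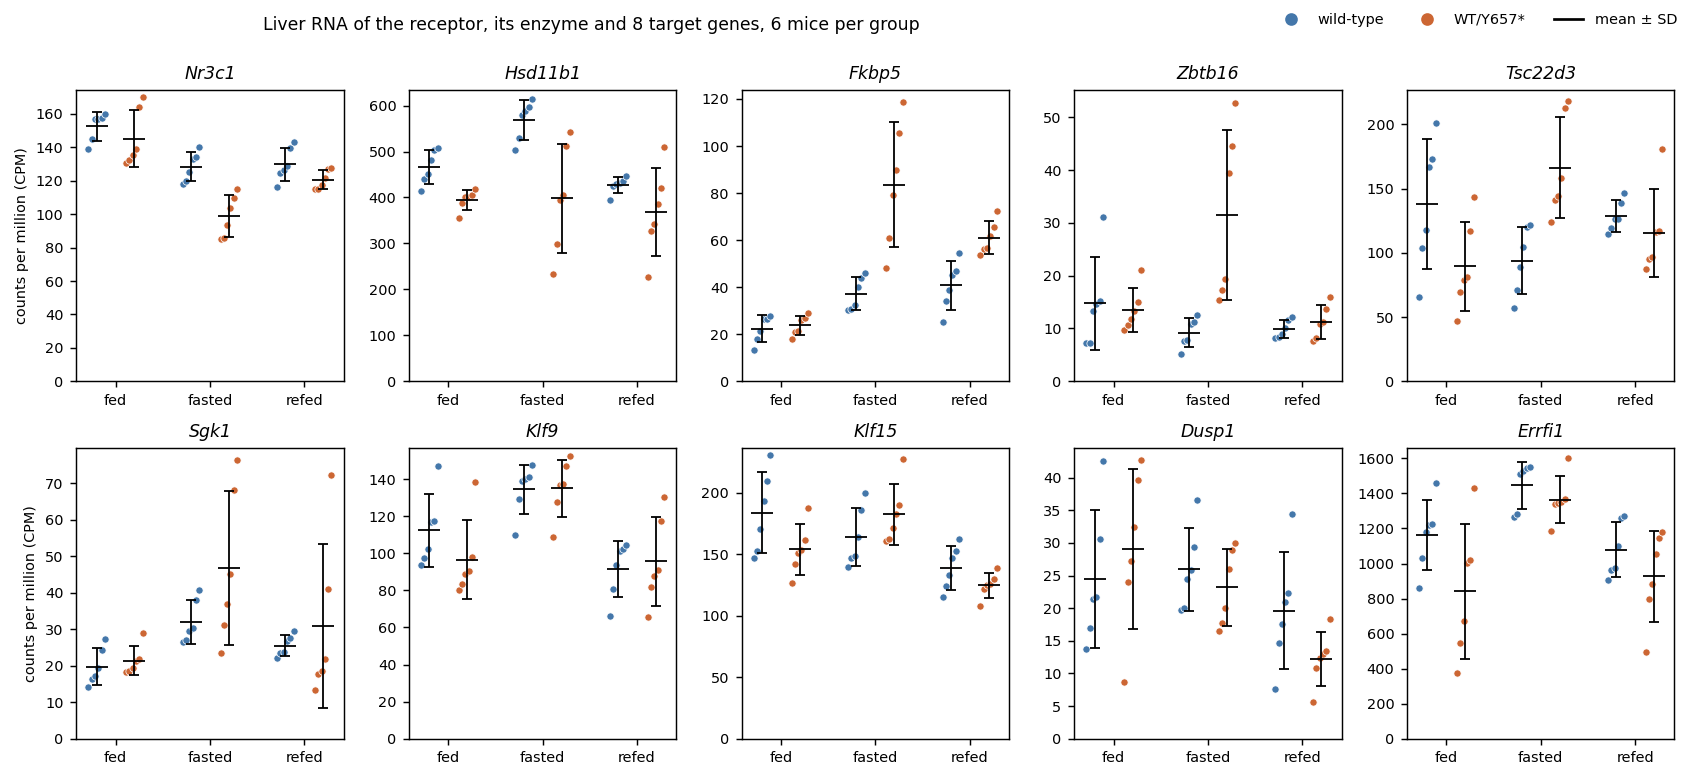
Each panel plots 1 gene, with CPM on the vertical axis from 0 and feeding state on the horizontal axis, 1 point per mouse, and black bars for the mean ± SD of 6 mice. Among fasted mice the WT/Y657* points of Fkbp5, Zbtb16 and Tsc22d3 lie above all wild-type points and those of Nr3c1 below them, whereas in fed mice the genotypes overlap in every panel.

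Of the 6 groups, fasted WT/Y657* mice had the lowest median of receptor RNA. Nr3c1 stood at 118, 129 and 140 CPM (lowest, median, highest) in fasted wild-type mice and at 84.9, 98.8 and 115 CPM in fasted WT/Y657* mice. No mouse of one genotype reached the range of the other, and the log2 fold change was -0.38 (SE 0.075, adjusted p 0.00077, edgeR). It ranged from -0.43 to -0.34 when each fasted mouse was left out in turn, past the threshold each time. Fed mice had 139, 157 and 160 CPM if wild-type and 131, 137 and 170 CPM if WT/Y657*, ranges that overlap. After refeeding wild-type mice had 116, 128 and 143 CPM, and the ranges of the genotypes overlapped, with 115, 119 and 128 CPM for WT/Y657*.

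Within each genotype, receptor RNA was lower in fasted than in fed mice. The log2 fold change was -0.25 (SE 0.074, adjusted p 0.00895) in wild-type mice, whose groups overlapped, and -0.56 (SE 0.075, adjusted p 2.75e-07) in WT/Y657* mice, whose groups did not. The difference between these responses was -0.31 (SE 0.11) and did not pass adjustment (adjusted p 0.0877, edgeR). It passed when libraries were scaled by their size only (adjusted p 0.0481), without 1 of the fasted WT/Y657* mice of the higher numbers (0.0374) and without the outlying fed mice (-0.42, adjusted p 0.0381). Nr3c1 was higher in refed than in fasted WT/Y657* mice by 0.29 on the log2 scale (SE 0.075, adjusted p 0.00278), with no overlap between the groups. Refed mice of both genotypes were still below fed mice, at -0.23 in wild-type mice (SE 0.074, adjusted p 0.017) and -0.27 in WT/Y657* mice (SE 0.074, adjusted p 0.00698). The wild-type call was lost with scaling by library size only (-0.155, adjusted p 0.126) and on leaving out 1 refed mouse (adjusted p 0.0509).

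Hsd11b1, which sets how much active hormone a hepatocyte makes for itself, was also lower in fasted WT/Y657* mice, but with a wide spread. Fasted wild-type mice had 504.3, 583 and 614 CPM, and fasted WT/Y657* mice had 234, 401 and 543.5 CPM. The log2 fold change was -0.51 (SE 0.14, adjusted p 0.0118, edgeR), the ranges overlapped, and the adjusted p was 0.0644 when only these 12 mice entered the fit. In fed mice the genotypes had 415, 466 and 507 CPM against 355, 401 and 418 CPM, a log2 fold change of -0.24 (SE 0.14, adjusted p 0.369). In refed mice the corresponding values were 395.5, 431 and 448 CPM against 226, 364 and 510 CPM, and the log2 fold change was -0.21 (SE 0.14, adjusted p 0.647). Hsd11b1 was lower in refed than in fasted wild-type mice (log2 fold change -0.41, SE 0.14, adjusted p 0.0224), with every refed mouse below every fasted one. That call was lost with scaling by library size only (adjusted p 0.0582). Reads of Hsd11b1 may include those of an antisense gene, 4930570N18Rik, and of Lamb3, which overlap it, since the strand setting of the counting is not given in the sources used here.

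Fkbp5 RNA separated the genotypes in fasted mice. Fasted wild-type mice had 30.4, 36.25 and 46.2 CPM and fasted WT/Y657* mice had 48.0, 84.3 and 118.5 CPM. Every WT/Y657* mouse was above every wild-type mouse, at a log2 fold change of 1.16 (SE 0.19, adjusted p 0.000143, edgeR), or 2.24-fold. Fed mice did not separate, with 13.45, 23.9 and 27.8 CPM in wild-type and 18.01, 23.6 and 29.2 CPM in WT/Y657* mice. In refed mice the levels were 25.2, 42.0 and 54.5 CPM against 53.6, 59.35 and 72.3 CPM, so that the highest wild-type mouse alone reached into the range of WT/Y657* mice. That refed difference was 0.58 on the log2 scale (SE 0.19), with an unadjusted p of 0.00432 and an adjusted p of 0.295, and it was not called.

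The fasting response of Fkbp5 was present in both genotypes and larger in WT/Y657* mice. Fasted mice were above fed mice by 0.74 (log2 fold change, SE 0.20, adjusted p 0.00376) in wild-type mice and by 1.81 (SE 0.20, adjusted p 9.34e-09) in WT/Y657* mice. In each case fed and fasted mice did not overlap. The difference between the responses was 1.07 (SE 0.27, adjusted p 0.0208, edgeR). Without the outlying fed mice it was 1.3 (adjusted p 0.0242), and it passed the threshold with each of the 24 mice left out in turn. Refed mice were also above fed mice in Fkbp5, by 0.87 in wild-type (SE 0.20, adjusted p 0.00107) and by 1.36 in WT/Y657* mice (SE 0.19, adjusted p 3.615e-06). Refed against fasted, it differed by 0.13 in wild-type (SE 0.19, adjusted p 0.655) and by -0.45 in WT/Y657* mice (SE 0.19, adjusted p 0.06435), neither called. The latter passed in 2 of 12 fits that left out 1 mouse. No other gene of the set was called higher in refed than in fed mice in either genotype.

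Zbtb16, which encodes the zinc finger repressor PLZF, had the largest fold change of the set between fasted genotypes. It stood at 5.19, 9.305 and 12.5 CPM in wild-type and at 15.4, 29.5 and 52.8 CPM in WT/Y657* mice. The ranges did not overlap, and the log2 fold change was 1.78 (SE 0.32, adjusted p 0.00044, edgeR), or 3.44-fold. Fed mice had 7.16, 13.99 and 31.1 CPM if wild-type and 9.66, 12.5 and 21.1 CPM if WT/Y657*, and refed mice had 8.24, 9.54 and 12.1 CPM against 7.58, 11.03 and 16.05 CPM, overlapping in both states. Zbtb16 was higher in fasted than in fed WT/Y657* mice by 1.23 (SE 0.31, adjusted p 0.00275), and the log2 fold change in wild-type mice, -0.70 (SE 0.33, adjusted p 0.105), was not called. The difference between these responses was 1.93 (SE 0.45, adjusted p 0.013). Without the outlying fed mice it was 1.64 and no longer called (adjusted p 0.0886), and neither was the WT/Y657* difference between fasted and fed mice (0.94, adjusted p 0.0749). Zbtb16 was lower in refed than in fasted WT/Y657* mice by 1.49 on the log2 scale (SE 0.32, adjusted p 0.000479). The genotype difference in that refeeding response was -1.61 (SE 0.46, adjusted p 0.0576, edgeR), short of the threshold, and DESeq2 put it past the threshold (-1.59, adjusted p 0.0244).

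Tsc22d3 was higher in WT/Y657* mice in the fasted state. Fed wild-type mice had 65.7, 142 and 201 CPM and fed WT/Y657* mice 47.1, 80.2 and 143 CPM, a log2 fold change of -0.62 (SE 0.25, adjusted p 0.167, edgeR). Fasted wild-type mice had 57.0, 96.6 and 122 CPM, all below the 124, 151 and 218 CPM of fasted WT/Y657* mice. The fasted genotype difference was 0.83 (SE 0.25, adjusted p 0.0238), or 1.77-fold, and it missed the threshold when any 1 of 4 mice of the higher numbers, 2 of each genotype, was left out, with adjusted p up to 0.0641. Tsc22d3 was higher in fasted than in fed WT/Y657* mice by 0.89 (SE 0.25, adjusted p 0.00545), whereas the log2 fold change of -0.56 in wild-type mice (SE 0.25, adjusted p 0.0839) was not called. Without the outlying fed mice the WT/Y657* value was 0.55 (adjusted p 0.148). The difference of the responses was 1.45 (SE 0.35, adjusted p 0.0151), and 1.11 without the outlying fed mice (adjusted p 0.103). Refed mice overlapped, at 114.5, 126 and 147 CPM in wild-type and 87.4, 106.5 and 181 CPM in WT/Y657* mice.

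**Figure D2:**
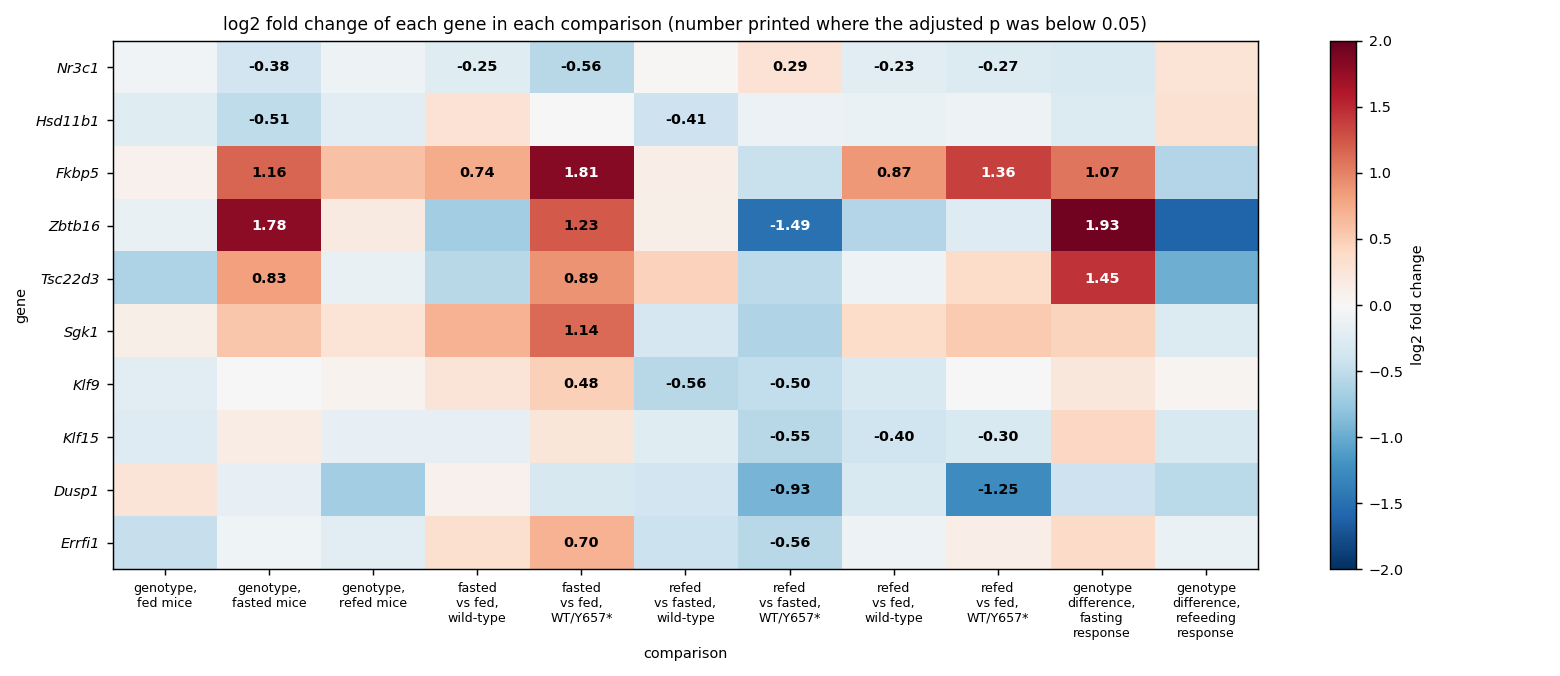
Rows are the 10 genes, columns the 11 comparisons, and colour the log2 fold change from -2 (blue) to 2 (red), with a number printed where the edgeR adjusted p was below 0.05. Genotype columns carry numbers in fasted mice only, in 5 rows, and the WT/Y657* fasting column carries 7 numbers against 2 in the wild-type one.

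Sgk1, a kinase that acts on ion transport and is a classic early target, had a wide range in fasted WT/Y657* mice. Fasted WT/Y657* mice had 23.5, 40.9 and 76.3 CPM against 26.4, 29.9 and 40.7 CPM in fasted wild-type mice. The genotype difference of 0.55 (SE 0.30, adjusted p 0.228, edgeR) was not called. Fed mice lay at 14.1, 18.3 and 27.2 CPM in wild-type and 18.4, 20.25 and 28.9 CPM in WT/Y657* mice. Sgk1 was higher in fasted than in fed WT/Y657* mice by 1.14 (SE 0.30, adjusted p 0.0038). In wild-type mice the value was 0.70 (SE 0.30, adjusted p 0.0796), which was not called and passed when only fed and fasted wild-type mice entered the fit (adjusted p 0.00379). Among refed WT/Y657* mice, 1 mouse with 72.1 CPM and 1 with 41.01 CPM stood above the other 4, which had 13.4 to 21.8 CPM. Refed against fasted WT/Y657* mice differed by -0.61 (SE 0.29, adjusted p 0.119), and by -1.06 without the mouse at 72.1 CPM (adjusted p 0.00189). With limma-voom it was -0.755 (adjusted p 0.0405).

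The Krüppel-like factors changed with feeding state, and neither was called between genotypes. Klf9, a clock-linked repressor of growth, had 110, 139 and 147 CPM in fasted wild-type and 108.5, 137 and 153 CPM in fasted WT/Y657* mice, against 66.1, 97.4 and 104 CPM and 65.7, 89.2 and 131 CPM after refeeding. Refed mice were lower than fasted mice by a log2 fold change of -0.56 in wild-type (SE 0.14, adjusted p 0.00262, no overlap) and -0.50 in WT/Y657* mice (SE 0.14, adjusted p 0.00648, overlapping). Klf15, which promotes amino acid breakdown and glucose production, fell on refeeding in WT/Y657* mice from 161, 177 and 227.5 CPM to 108, 125 and 138 CPM. None of the refed WT/Y657* mice reached the fasted range (log2 fold change -0.55, SE 0.11, adjusted p 0.000136, edgeR). In wild-type mice refed levels of Klf15 were 115, 140 and 163 CPM against 140, 156 and 200 CPM in fasted mice, and the difference was not called. Its genotype difference in the refeeding response was -0.31 (SE 0.15, adjusted p 0.32), so the responses were not shown to differ.

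Dusp1, a phosphatase that switches off stress kinases, was low throughout, at 5.59 to 42.7 CPM over all mice. It fell in WT/Y657* mice from 16.5, 23.1 and 30.1 CPM in the fasted to 5.59, 12.7 and 18.35 CPM in the refed state. The log2 fold change was -0.93 (SE 0.33, adjusted p 0.0305), and it missed the threshold on leaving out any of 5 of the 12 mice, with adjusted p up to 0.0813. Refed wild-type mice had 7.62, 19.3 and 34.4 CPM, and the genotype difference in refed mice was -0.70 (SE 0.33, adjusted p 0.493). Errfi1, an inhibitor of the epidermal growth factor receptor and the most abundant gene of the set per kb, had 374.5, 839 and 1429 CPM in fed WT/Y657* mice against 860, 1201 and 1457 CPM in fed wild-type mice. The lowest 3 of those WT/Y657* mice were the outlying fed mice, at 374.5 to 672 CPM. Fasted WT/Y657* mice had higher Errfi1, at 1185, 1347 and 1600 CPM (0.70, SE 0.21, adjusted p 0.00848), and without those 3 fed mice the value was 0.24 (adjusted p 0.325). Refed WT/Y657* mice had 496, 970 and 1181 CPM, all below the fasted ones (-0.56, SE 0.20, adjusted p 0.0355), a call that was lost on leaving out any of 6 of the 12 mice, with adjusted p up to 0.104. An antisense gene, 1700045H11Rik, overlaps Errfi1, and others overlap Dusp1 and Fkbp5.

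Counts over the set were read against those over all genes, as a description, since the set was chosen with earlier results known. Fasted against fed wild-type mice differed in 2 of the 10 genes, where 32% of all tested genes were called, so the count is no larger than the background. With only the 2 wild-type groups in the fit, 6 were called, where that fit called 36.2% of all genes. Fasted against fed WT/Y657* mice differed in 7 of 10, 6 of them higher, where 32.9% of all genes were called. Klf9 was among them (0.48, SE 0.14, adjusted p 0.00764). Without the outlying fed mice the count was 3, Fkbp5, Sgk1 and Nr3c1, near the 30.3% of all genes called in that fit. The response itself differed between genotypes for 3 of the 10 genes, Fkbp5, Zbtb16 and Tsc22d3, all higher, where 4.35% of all genes were called. Zbtb16 and Tsc22d3 were no longer among them without the outlying fed mice, Nr3c1 was, and 2.63% of all genes were called. The comparisons share their fasted and fed mice, so these counts are not independent of each other or of the genotype count in fasted mice.

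After refeeding, the changes ran mostly downwards. Refed against fasted wild-type mice differed in 2 of the 10 genes, against 30.2% of all genes, and in 4 with only those 2 groups in the fit, against 36.7% of all genes in that fit. Refed against fasted WT/Y657* mice differed in 6 of the 10, 5 lower and Nr3c1 higher, against 31.3% of all genes. Compared with the fed state, refed wild-type mice differed in 3 genes, where the background was 27.5%, and refed WT/Y657* mice in 4, where it was 26.1%. Klf15 was lower in refed than in fed mice of both genotypes, at -0.40 in wild-type (SE 0.11, adjusted p 0.0046) and -0.30 in WT/Y657* mice (SE 0.11, adjusted p 0.0341). The WT/Y657* call was lost on leaving out any of 6 of the 12 mice, with adjusted p up to 0.106, without the outlying fed mice (0.0611) and with scaling by library size only (0.0693). Dusp1 was lower in refed than in fed WT/Y657* mice, at -1.25 (SE 0.33, adjusted p 0.00476). No gene of the set passed for a genotype difference in the refeeding response (edgeR, background 2.06%). At an unadjusted p of 0.05 there were 5, and DESeq2 and edgeR's likelihood ratio test each called 1, Zbtb16, and limma-voom 0.

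The genotype differences in fasted mice were also fitted within each set of mouse numbers. The lower numbers, 3 mice of each genotype, gave a log2 fold change of 2.21 for Zbtb16 (SE 0.40, adjusted p 0.00298), with 39.5 to 52.8 CPM in WT/Y657* and 7.80 to 11.2 CPM in wild-type mice. Among the higher numbers Zbtb16 differed by 1.03 (SE 0.43, adjusted p 0.292), with 15.4 to 19.4 CPM against 5.19 to 12.5 CPM. Fkbp5 differed by 1.63 (SE 0.24, adjusted p 0.000564) in the lower and by 0.615 (SE 0.24, adjusted p 0.244) in the higher numbers. Both genes kept their direction without overlap in each set, which had to follow, since the genotypes did not overlap over all fasted mice. Hsd11b1 differed by -0.88 (SE 0.14, adjusted p 0.000564) in the lower and by -0.22 (SE 0.17, adjusted p 0.622) in the higher numbers, where the genotypes overlapped. Nr3c1 differed by -0.49 (SE 0.098, adjusted p 0.00355) and by -0.28 (SE 0.098, adjusted p 0.176).

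Tsc22d3 had the opposite order. Its genotype difference was 0.31 (SE 0.35, adjusted p 0.681) in the lower numbers, at 124 to 144 CPM against 89.0 to 122 CPM, and 1.34 (SE 0.39, adjusted p 0.124) in the higher numbers, at 158 to 218 CPM against 57.0 to 104 CPM. With 3 mice of each genotype the fits called 4 of the 10 genes in the lower and 0 in the higher numbers, and 784 and 77 genes in all, or 5.5% and 0.540%. With the number set as a term over all fasted and refed mice, 5 of the 10 were called between fasted genotypes, where 13.4% of all genes were. Whether the genotype difference itself differed between the number sets was not tested. Among fasted mice of the higher set every wild-type mouse has a smaller number than any WT/Y657* mouse, so number and genotype cannot be told apart there.

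**Figure D3:**
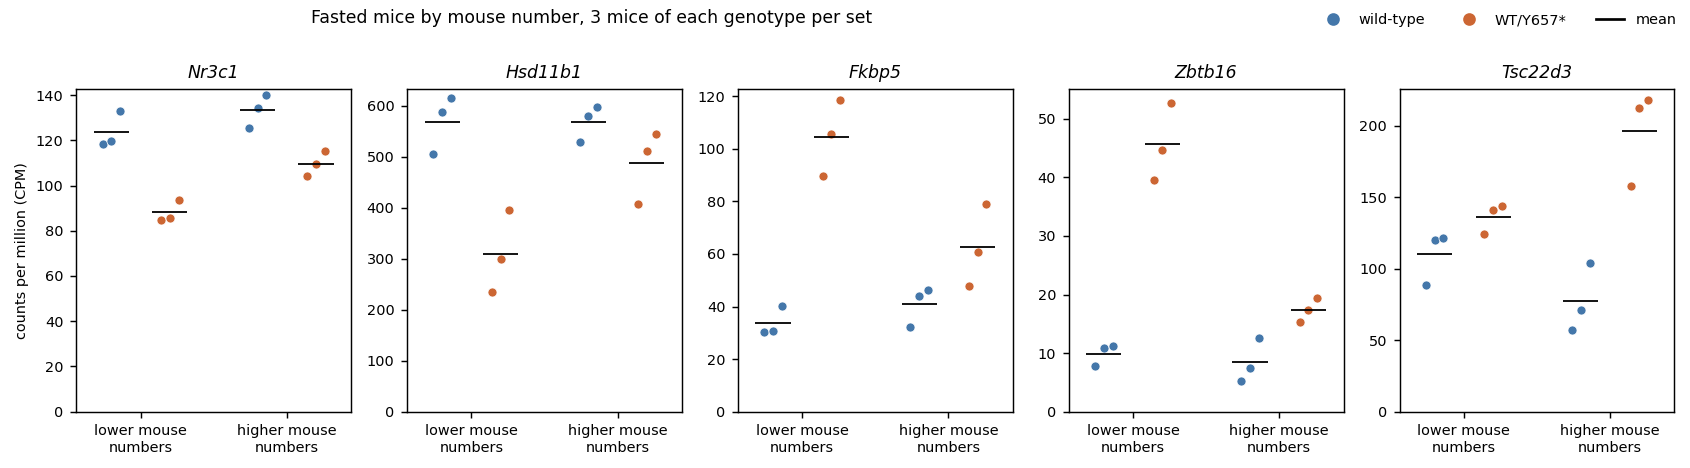
CPM of 5 genes in fasted mice, vertical axes from 0, split by lower and higher mouse numbers, with 3 mice of each genotype per set, 1 point per mouse and a black line at the mean. WT/Y657* mice of the lower numbers have the highest Zbtb16 (39.5 to 52.8 CPM) and Fkbp5 (89.6 to 118 CPM), and those of the higher numbers the highest Tsc22d3 (158 to 218 CPM).

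Genes that supply hormone to the receptor or fold it were compared as a list of 25, of which 24 could be tested. In fasted mice 2 differed between genotypes, both lower in WT/Y657* mice, a share no larger than the 13.1% of all genes, and the list's median log2 fold change was -0.046 against 0.0021 over all genes. Serpina6, which encodes corticosteroid-binding globulin, the carrier of the hormone in blood, had 47.4, 60.9 and 87.8 CPM in fasted WT/Y657* mice, all below the 100.3, 125.5 and 157 CPM of fasted wild-type mice (-1.004, SE 0.22, adjusted p 0.00265). Akr1d1, a steroid reductase that inactivates the hormone, was also lower (log2 fold change -0.53, SE 0.17, adjusted p 0.0338), a call lost when only fasted mice entered the fit (adjusted p 0.155). The fasting response of Serpina6 differed between genotypes by -1.53 (SE 0.31, adjusted p 0.00456), and by -0.77 without the outlying fed mice (adjusted p 0.0761). In fed mice, where 2.37% of all genes were called, 3 chaperone genes were lower in WT/Y657* mice, Hsp90aa1 (-0.81, adjusted p 0.0118), Stip1 (-0.48, adjusted p 0.0196) and, named after its values were seen, Hsp90ab1 (-0.35, adjusted p 0.0333), and no gene of the fed comparison was called over the whole table without the outlying fed mice. No gene of the list was called in refed mice (edgeR).

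A list of 22 further glucocorticoid targets was compared in the same way. In fasted mice 4 of 22 were called, all higher in WT/Y657* mice, a share near the 13.1% of all genes, and the median log2 fold change of the list was 0.46. Cdkn1a, a cell cycle inhibitor, had 0.9515, 2.86 and 7.375 CPM in wild-type and 1.93, 13.4 and 59.2 CPM in WT/Y657* mice (2.54, SE 0.64, adjusted p 0.00793), and Ddit4, an inhibitor of mTORC1, had 1.302, 2.18 and 3.025 CPM against 2.885, 6.19 and 19.1 CPM (1.92, SE 0.54, adjusted p 0.0167). Both overlapped between genotypes, and limma-voom called neither (adjusted p 0.0679 and 0.0503). The other 2, named after their values were seen, were Cebpd, a transcription factor of the acute phase (1.23, SE 0.24, adjusted p 0.00081), and Tdo2, a tryptophan-degrading enzyme (0.44, SE 0.097, adjusted p 0.00217). In fed mice the metal-binding Mt2 and Mt1 were lower in WT/Y657* mice, at -4.53 and -3.48, but fed wild-type levels of Mt2 ran from 0.28 to 89.8 CPM and limma-voom called neither. No target of this list was called in refed mice.

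Across feeding states members of this list were called in both genotypes. Fasted against fed, 7 of 22 were called in wild-type mice, 6 of them higher, and 11 in WT/Y657* mice, all higher, where 32% and 32.9% of all genes were called, so the wild-type count equals the background. Refed against fasted, 13 were called in wild-type mice, 11 of them lower, and 15 in WT/Y657* mice, all lower, where 30.2% and 31.3% of all genes were called. A large share was not particular to targets. Of the 24 genes of hormone metabolism, chaperones and cofactors, 14 (9 higher) and 15 (11 higher) were called there. Between fasted and fed mice 12 (wild-type) and 11 (WT/Y657*) of those 24 were called. Among the further targets Pdk4, which spares glucose in mitochondria, had log2 fold changes on fasting of 2.255 (wild-type) and 1.61 (WT/Y657*), both called. The former was the largest of that list in wild-type mice. In WT/Y657* mice the largest was 4.81, for Mt2, with a mean of 1.075 CPM in fed mice. Of 17 clock genes, 5 (wild-type) and 7 (WT/Y657*) were called between fasted and fed mice, near these backgrounds, and 8 and 12 between refed and fasted mice. Among them Npas2 had log2 fold changes after refeeding of -4.05 (wild-type) and -3.55 (WT/Y657*), both called. The part of the clock in the changes with feeding state was not tested. Between genotypes the clock gene Cry2, a repressor, was lower in fasted WT/Y657* mice (-0.63, SE 0.18, adjusted p 0.0177). That call was lost on leaving out any of 4 of the 12 mice, with adjusted p up to 0.0616. The share of clock genes called in fasted mice was no larger than the 13.1% of all genes. In fed and refed mice 0 clock genes were called (edgeR).

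**Figure D4:**
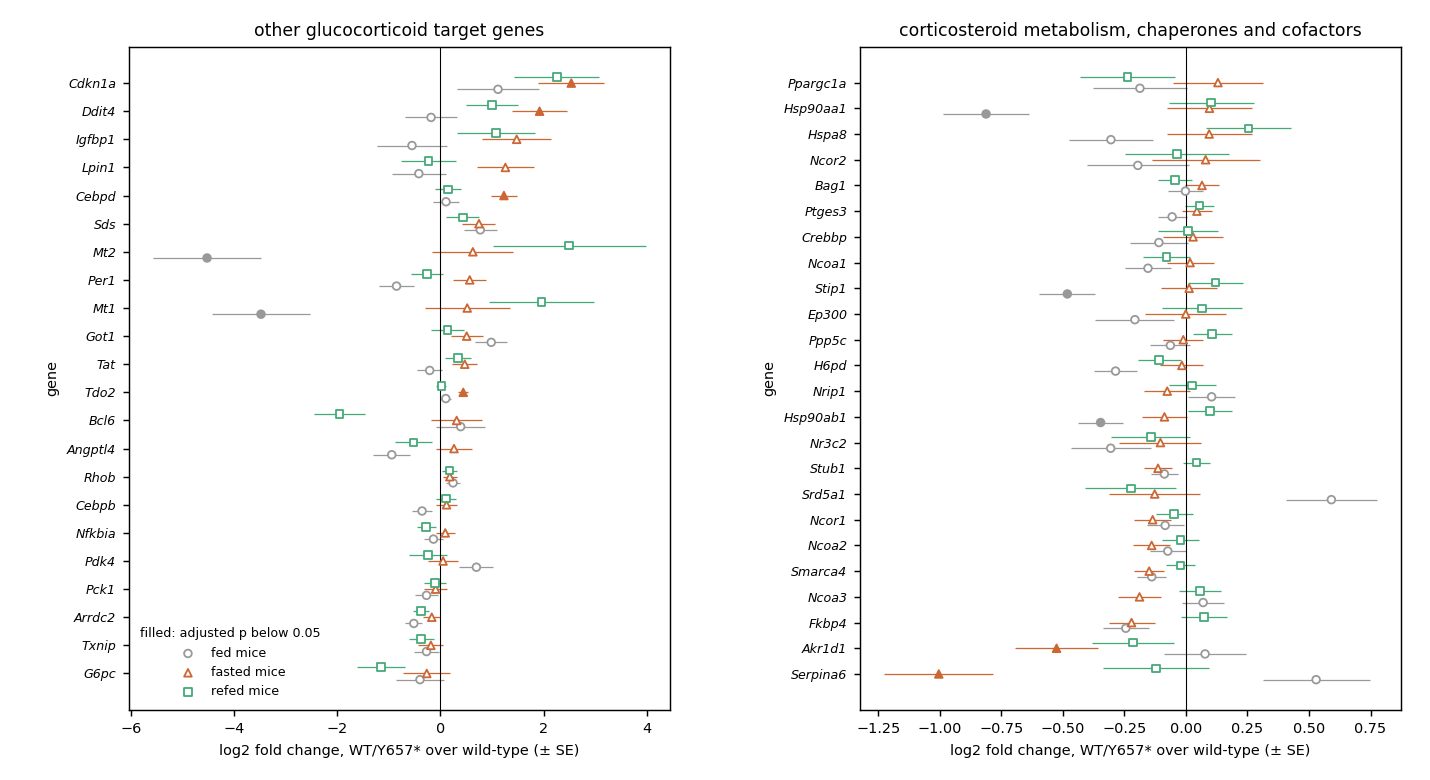
Log2 fold change (± SE) of WT/Y657* over wild-type mice for 22 further targets (left) and 24 genes of hormone metabolism, chaperones and cofactors (right), in fed (circles), fasted (triangles) and refed mice (squares), filled where the adjusted p was below 0.05. Filled triangles lie right of 0 for 4 targets and left of 0 for Serpina6 and Akr1d1, and no square is filled.

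Summed levels of markers of other liver cells overlapped between the genotypes in fasted mice, but single markers differed. Summed CPM of 5 Kupffer cell markers was 208 to 388 in fasted wild-type and 219 to 373 in fasted WT/Y657* mice, of 5 endothelial markers 292 to 339 and 278 to 342, and of 5 stellate cell markers 305 to 368 and 332 to 479. The 2 neutrophil markers barely overlapped, with sums of 0.286 to 1.9 CPM in fasted wild-type and 1.85 to 6.57 CPM in fasted WT/Y657* mice, and neither was called. The endothelial marker Lyve1 was higher in fasted WT/Y657* mice, at 11.4, 18.9 and 41.75 CPM against 6.03, 8.75 and 11.5 CPM (log2 fold change 1.32, SE 0.39, adjusted p 0.0218, edgeR). The stellate marker Dcn was higher too, at 167, 185 and 271 CPM against 134, 151 and 175 CPM (0.42, SE 0.12, adjusted p 0.015), and was also called in fed mice (0.43, SE 0.12, adjusted p 0.0407). Both were named after their values were seen, the other 4 markers of each of these lists and all 5 Kupffer markers were not called in fasted mice, and their part in the fasted genotype differences was not tested. In fed mice the Kupffer sum was 178 to 252 in wild-type and 169 to 619 in WT/Y657* mice, and its part in the fed values was not tested. In all 36 mice, 4 lymphocyte markers summed to 0.653 to 6.14 CPM, 4 cholangiocyte markers to 2.82 to 12.1, 2 neutrophil markers to 0.286 to 24.5 and 2 erythroid markers to 52.5 to 254 CPM.

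Pairs of genes were compared between mice of the same group. Deviations from group means of log2 CPM were correlated over all 36 mice for the 45 pairs of genes, with permutation of mice within groups and adjustment over the pairs. Pearson's r passed for 2 pairs, Tsc22d3 with Errfi1 (r 0.575, permutation p 0.00159, adjusted 0.0468, Spearman's rho 0.593, permutation p 0.00055, adjusted 0.0247) and Nr3c1 with Klf9 (r 0.479, permutation p 0.00208, adjusted 0.0468, rho 0.51, permutation p 0.00172, adjusted 0.0387). Both were positive in each of the 6 groups, at 0.237 to 0.909 for the first pair and 0.205 to 0.852 for the second. Without the 2 mice farthest from the median of the first gene, r was 0.508 (adjusted permutation p 0.0862) and 0.414 (adjusted permutation p 0.111), so neither pair passed, and neither did with scaling by library size only. Fkbp5 and Tsc22d3, both higher in fasted WT/Y657* mice, had r -0.334 (adjusted permutation p 0.248), and were not called as a pair.

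By the same deviations, the genes outside the set most like the receptor were Pard3 (r 0.74), Slc22a23 (0.70) and Phf3 (0.694). For Tsc22d3 they were Ppp1r3b (0.816), Tob2 (0.809) and Angptl4 (0.774), and for Fkbp5 Sdad1 (0.609), Blmh (0.59) and Rfk (0.577). These were the highest values over 13945 genes and 36 mice and are given as a description. Genes measured in the same mouse share its library and depth.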

How the data were processed

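Liver RNA of 36 mice was sequenced, and the authors deposited estimated counts of reads per gene, not normalized. They held fractions in 3.29% of entries and were rounded to whole numbers here. Per the labels, Cuffdiff, SAMtools, featureCounts and edgeR were used upstream, and the strand setting is not given in the sources used here. The labels name mm9, but gene positions in the table overlapped GRCm38 annotation (GENCODE M21) for 99.7% of matched genes. A deposited table of fitted counts was not used. Genes passing edgeR's filterByExpr were scaled by TMM and fitted with the quasi-likelihood test (edgeR 4.0.16, R 4.3.3), with 1 coefficient per group over all 36 libraries and adjustment over 13945 genes at 0.05, for 11 comparisons. SE was the absolute log2 fold change over the root of F. The p-values of these fits set a difference between groups against the spread between mice. DESeq2 1.42.0, limma-voom (limma 3.58.1), other scaling, other filters, other sets of libraries and leaving out each mouse were alternatives. The procedure was tested on simulated data. The genes and lists were chosen with earlier results of these data known. All 10 genes are named, as are, for Nr3c1, Tsc22d3 and Fkbp5, the 3 genes most like them. Of the lists of hormone metabolism and chaperones and of further targets, genes could be named by a rule. It took the 2 called genes with the largest log2 fold change in each direction per comparison. Not all genes that met the rule are named, and genes named after their values were seen are marked so. Clock and cell marker genes are named where they differed in a comparison in which genes of the set did too. A result of the clock list is not reported here.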

Additional observations from a re-analysis of the deposited data

Results flagged for a closer look

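Among 60 sets of 6 mice (10 genes in 6 groups), 4 had a mouse far from the other 5 by Dixon's criterion (a gap to the nearest mouse that is a large share of the range), and chance alone gives about 1 in 20. A fed WT/Y657* mouse had 138.3 CPM of Klf9, where the nearest mouse had 98.05 CPM. Another fed WT/Y657* mouse, 1 of the 3 outlying ones, had 28.87 CPM of Sgk1, against 21.72 CPM in the nearest mouse. A refed WT/Y657* mouse had 180.7 CPM of Tsc22d3, and the nearest mouse had 117.0 CPM. A fed wild-type mouse had 31.11 CPM of Zbtb16, against 15.25 CPM in the nearest mouse.

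The response to fasting differed between the genotypes by a test of the difference itself for 3 genes, at 1.45 on the log2 scale for Tsc22d3, 1.07 for Fkbp5 and 1.93 for Zbtb16 (edgeR adjusted p 0.0151, 0.0208 and 0.013). The call, without the outlying fed mice, held for Fkbp5 (edgeR adjusted p 0.0242) and was lost for Tsc22d3 (0.103) and Zbtb16 (0.0886).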

How the results depend on the processing

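Of 110 differences of the 10 genes, 32 were called, and 12 of these held in every fit run for them. There were 12 alternatives and 36 fits that left out 1 mouse, but not every fit covered every comparison. A mouse was left out only for comparisons with its group. Fits by mouse number covered only comparisons among fasted and refed mice. The fit without the outlying fed mice covered only comparisons with fed WT/Y657* mice. The other 20 lost their call in at least 1 of the fits run for them, and none of the 32 reversed. Another 16 were called in an alternative only. The number of genes called for the genotype difference in the refeeding response was 1 instead of 0 with DESeq2, with the likelihood ratio test, with at least 10 counts in every library and with only the groups compared, and 0 to 1 when each mouse was left out. With only the groups compared it was 6 for fasted against fed and 4 for refed against fasted wild-type mice, and the latter was 1 with scaling by library size only. In fed mice the genotype count was 0 to 2 when each mouse was left out, and 2 without the WT/Y657* mouse highest in Klf9, Tsc22d3 (-0.807, edgeR adjusted p 0.047) and Errfi1 (-0.684, edgeR adjusted p 0.0295). The following were chosen after seeing the data. Without the outlying fed mice the fasting count in WT/Y657* mice was 3. With only the higher mouse numbers the counts were 0 for genotype in fasted mice, 0 for refed against fasted wild-type mice and 1 for WT/Y657* mice, and Fkbp5 in refed against fasted WT/Y657* mice reversed to 0.0537, where fewer mice entered the fit. Covarying pairs fell to 0 with scaling by library size only and without 2 mice. Over all genes, 330 were called between fed genotypes, against 644 with DESeq2, 516 with the likelihood ratio test, 756 with scaling by library size only, 207 with no filter, 30 with only those groups and 0 without the outlying fed mice. Between refed genotypes 4 were called, against 25 with DESeq2, 18 with the likelihood ratio test and 0 in each set of numbers. For the fasting difference, 607 became 386 with no filter and 378 without the outlying fed mice, and for the refeeding difference 287 became 152 with no filter and 69 and 2 in the lower and higher numbers. Each of those sets holds 3 fasted and 3 refed mice of each genotype. There, 1821 genes between fasted genotypes became 784 and 77. Between refed and fasted mice, 4217 became 2223 and 1856 in wild-type and 4371 became 2587 and 1846 in WT/Y657* mice. The cause of these changes was not tested. No paired analysis was possible because each mouse has its own number, which no other group shares. Counts of 60 or more per mouse put depth behind every gene of the set.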
